A study of Mus musculus with 12 samples.

Results

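The Rab family was followed in the pancreas of mice with cerulein-induced chronic pancreatitis and of saline-treated controls. Members were taken by name: every gene whose symbol is Rab with a number and at most 1 further letter and digit, measured by a probe set annotated to that gene alone, with effectors and regulators left out. The table held 59 such genes among 18194 named ones, on 132 probe sets, and the probe set with the highest mean over the 12 arrays stood for each gene. Of the 59, 43 passed the filter on low values (above log2 4 on at least 3 of 12 arrays) and were tested, and 16 did not. All 4 members that sit on secretory granules, Rab3d, Rab26, Rab27a and Rab27b, passed and are described first.

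Rab proteins are small GTPases that mark membranes. In the GTP-bound form, set by exchange factors, a Rab recruits effectors such as tethers and motors that move a vesicle or fuse it with its target; GTPase-activating proteins switch it off, and prenyl groups and the GDI chaperones carry it between membrane and cytosol. In the pancreatic acinar cell, digestive enzymes leave the endoplasmic reticulum, pass the Golgi, are stored in zymogen granules and are released at the apical membrane on stimulation, and Rab3d and Rab27b are known on those granules. Cerulein is an analogue of cholecystokinin that overstimulates this release when given in excess, and repeated courses leave chronic pancreatitis with acinar loss, inflammation and fibrosis.

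Total RNA of whole pancreas was hybridised to 12 arrays in 4 groups of 3. The groups were C57BL6/NHsd mice (Harlan) and C57BL6/J mice (Jackson), each as controls or with chronic pancreatitis induced by cerulein. All mice are given as 8 weeks old and each array as a biological replicate; the control labels also state female, and the cerulein labels name no sex. No transgene, Cre or other genotype is named, and dose, course and the time of sampling are not given in the sources used here. The controls were injected with saline, per the design text, and are called saline below. Values are log2 expression as deposited, and a difference of 1 is a doubling. In bulk tissue, fewer cells of a type and less RNA per cell cannot be told apart.

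The arrays of the 2 treatments differed as a whole. The median of the differences of the 8493 tested genes, cerulein minus saline, was 0.49. The medians of single arrays were 5.46 to 5.66 with saline and 5.98 to 6.23 with cerulein. The 7 hybridisation and 12 poly-A spike-in probe sets, whose RNA is added in the laboratory, differed by -1.91 and -2.68 on average (two-sided exact permutation test over all ways to split 12 arrays into 6 and 6, p = 0.00216 each, the smallest this design can give, and 0.00324 adjusted). The 3′ minus 5′ signal of the Gapdh control probe sets, a sign of RNA quality, was 0.83 on the cerulein and 1.22 on the saline arrays, a difference of -0.39 (exact permutation p = 0.00649). Its part in the Rab results was not tested. The labels name no batch, so treatment and array handling cannot be told apart. Each result is therefore given on the deposited scale and, where it matters, after every array was shifted to the same median (equal medians). This lowers each difference of cerulein minus saline by about the same amount, for Rab3d from -0.75 to -1.34. The first J cerulein array had a mean correlation of 0.951 with the others of its group, against 0.969 to 0.985 for the remaining 11 arrays; without it, 25 Rab genes were higher and 7 lower, the same counts as with it below. As for the tissue, the 17 acinar markers measured were above log2 4 on some arrays and their summed linear signal was 502000 to 522000 on the saline arrays and 347000 to 441000 on the cerulein arrays.

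Of the 43 tested Rab genes, 25 were higher and 7 lower after cerulein, averaged over both substrains (limma, Benjamini-Hochberg adjusted p under 0.05 over 8493 genes). Among all tested genes, 59.4% were higher and 10.0% lower, against 58.1% and 16.3% of the Rab genes, and the median difference was 0.38 for the Rab genes against 0.49 for all. Without 1 array the count of lower Rab genes ran from 4 to 7, with 4 when NHsd cerulein 1 or 3, J saline 1, or J cerulein 2 or 3 was left out. Scaling decided most of the count: with equal medians 9 Rab genes were higher and 17 lower, where 26.6% and 36.1% of all genes were. Of the 17, Rab3a, Rab22a and Rab40c stood within 0.01 of 1 value on at least 6 of the 12 arrays. For such probe sets the shift of the arrays alone gives a lower call, so these calls are no result about the genes. The 9 were Rab1a, Rab5a, Rab6a, Rab7b, Rab8b, Rab24, Rab31, Rab32 and Rab34, and they were also higher after quantile normalization; all 7 lower calls held in both. All 6 cerulein arrays lay above all 6 saline arrays for 18 Rab genes and below for 4, against 40.0% and 4.92% of all genes. The share of higher members was thus close to that of all genes.

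**Figure D1:**
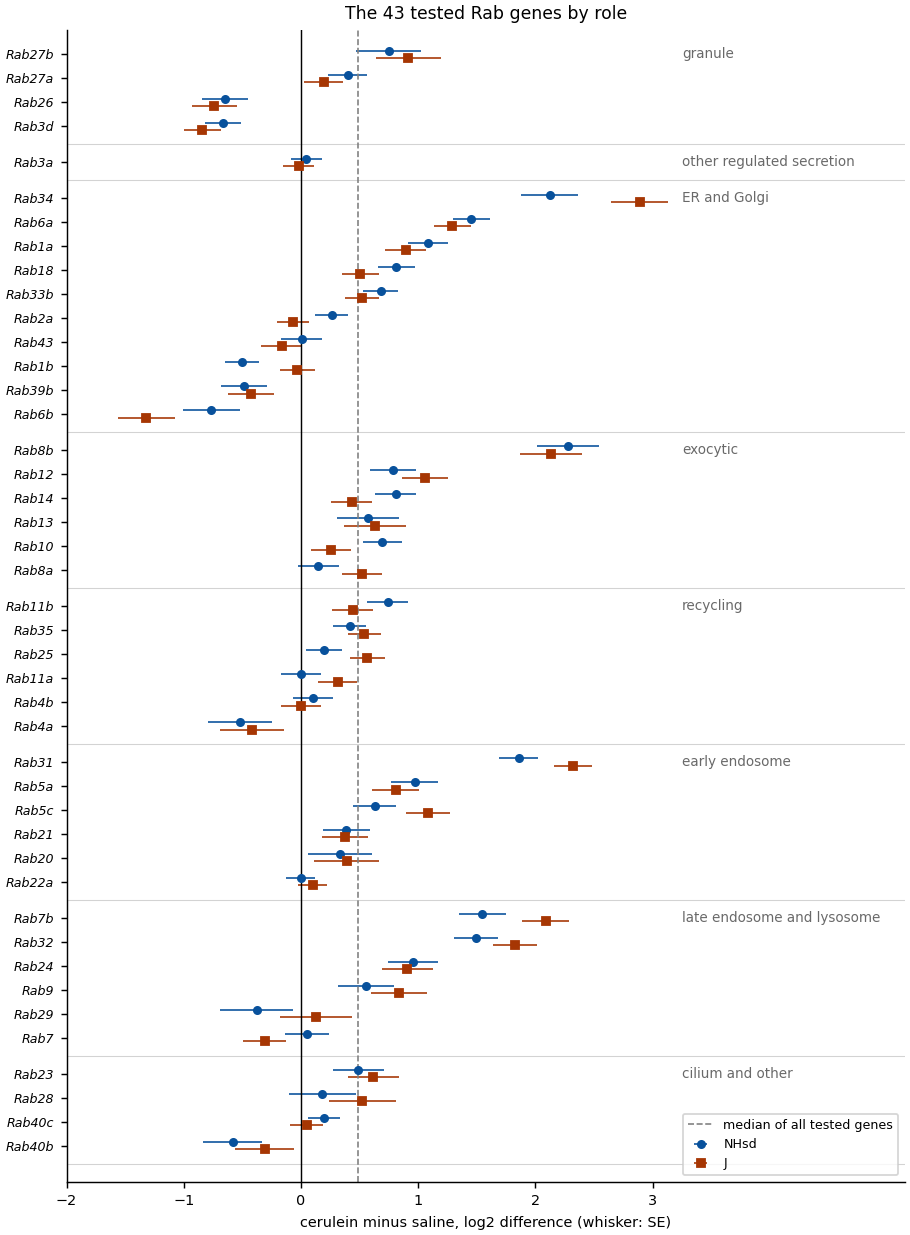
Log2 difference of cerulein minus saline for the 43 tested Rab genes, in NHsd (circles) and J (squares), with whiskers of 1 SE and genes grouped by role; the dashed line is the median of all tested genes for the mean of both substrains, 0.49. Rab34, Rab8b, Rab31, Rab7b and Rab32 lie far to the right of it, and Rab6b, Rab3d and Rab26 lie left of 0.

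The granule Rabs split. Rab3d and Rab26 fell by 0.75 and 0.69 on the log2 scale, 1.69-fold and 1.62-fold, and Rab27b rose by 0.83, 1.78-fold. Rab27a lay near the threshold, and its direction turned with the scaling of the arrays. The falls of Rab3d and Rab26 were called in each substrain on the deposited scale and with equal medians.

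Rab3d, a Rab of mature zymogen granules, was read by probe set 1418891_a_at. The NHsd arrays read 9.87, 10.05 and 9.93 for saline and 9.45, 9.001 and 9.39 for cerulein. The J arrays read 9.98, 9.96 and 9.65 for saline and 9.03, 8.87 and 9.16 for cerulein. Every cerulein array lay below every saline array. The difference was -0.75 (SE 0.11, adjusted p = 5.95e-05) for the mean of both substrains and -0.67 in NHsd and -0.84 in J. The call was kept without any 1 of the 12 arrays, and with equal medians the difference was -1.34. Of the other probe sets of Rab3d, 1 differed by -0.63 (SE 0.12) and 1 by -0.04 (SE 0.11).

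Rab26, which recruits membrane in secretory cells and lies downstream of the acinar factor Bhlha15 (Mist1), was measured by 1435500_at. Levels in NHsd were 7.17, 7.14 and 7.11 with saline and 6.90, 6.12 and 6.47 with cerulein. Levels in J were 6.98, 7.003 and 6.92 with saline and 6.53, 5.99 and 6.17 with cerulein. The cerulein arrays were again all below the saline arrays, but spread more widely. The difference was -0.69 (SE 0.14, adjusted p = 0.000681), with -0.65 in NHsd and -0.74 in J. The NHsd call was lost when NHsd cerulein 2, the lowest array of its group, was left out (-0.46, adjusted p = 0.0606).

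Rab27b, an exocytic Rab of zymogen granules, was measured by 1417214_at. NHsd saline gave 6.41, 5.10 and 6.20, and NHsd cerulein 6.62, 6.40 and 6.93. J saline gave 6.21, 6.21 and 6.03, and J cerulein 7.19, 6.90 and 7.11. The J groups did not overlap, while NHsd saline 1 lay above NHsd cerulein 2 and NHsd saline 2 was far below the rest of its group. The rise was 0.83 (SE 0.20, adjusted p = 0.00232), with 0.75 in NHsd and 0.92 in J. In NHsd the call was lost without NHsd saline 2 (0.35, adjusted p = 0.143), without NHsd cerulein 1 (0.77, adjusted p = 0.0759) or without NHsd cerulein 3 (0.61, 0.13). With equal medians the mean difference was 0.25 and not called (adjusted p = 0.238). Of 3 further probe sets, 2 differed by 0.38 and 0.64 and the third, held at a fixed value on most arrays, by -0.10.

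Rab27a, which acts in granule docking in many secretory and immune cells, was measured by 1429123_at. Saline values were 6.69, 6.33 and 6.53 in NHsd and 6.75, 6.73 and 6.20 in J. Cerulein values were 6.96, 6.91 and 6.87 in NHsd and 6.68, 6.76 and 6.82 in J. The NHsd groups did not overlap and the J groups did. The difference was 0.30 (SE 0.12, adjusted p = 0.0392) as deposited and -0.28 with equal medians (adjusted p = 0.0379), so a rise and a fall were each called under a different scaling, and 8 of the 12 fits without 1 array lost the rise. It was not called in NHsd (0.40, adjusted p = 0.0582) or in J (0.19, 0.337).

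**Figure D2:**
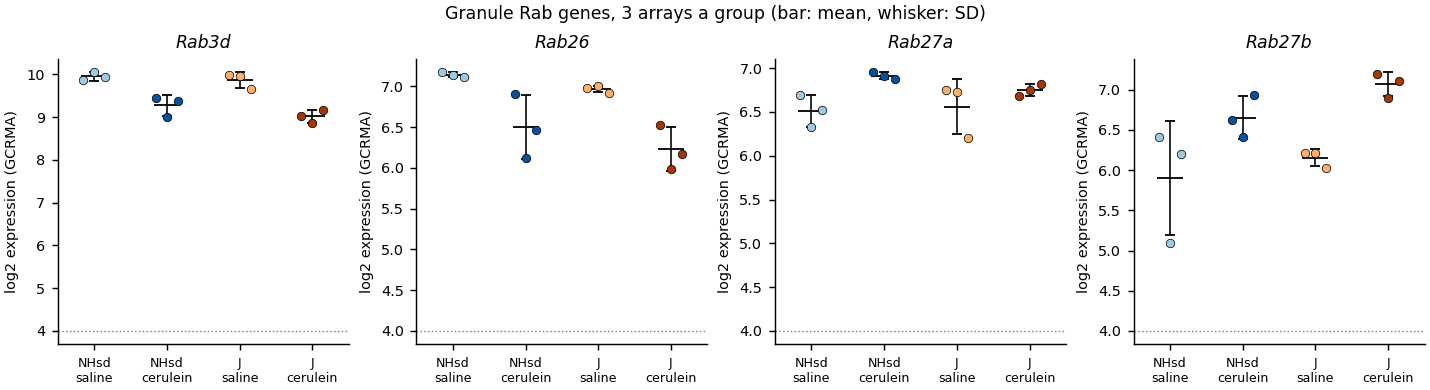
Log2 expression of Rab3d, Rab26, Rab27a and Rab27b on each of the 12 arrays (points), by substrain and treatment, with the group mean (bar), SD (whisker) and log2 4 (dotted line). Rab3d and Rab26 are lower on every cerulein array than on any saline array, and Rab27b is higher in J without overlap.

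The log ratio of 2 probe sets on the same array does not change when all values of that array are shifted by 1 amount, as with equal medians, so the split was also read in that way, with each ratio set to 0 at the mean of the saline arrays. The ratio of Rab27b to Rab3d was 0.42, -1.08 and 0.15 on the NHsd saline arrays and 1.04, 1.28 and 1.42 on the NHsd cerulein arrays. In J it was 0.11, 0.13 and 0.26 with saline and 2.04, 1.91 and 1.82 with cerulein. It was higher on every cerulein array than on any saline array, by 1.59 on average (two-sided exact permutation over 6 arrays a treatment; p = 0.00216, and 0.00401 adjusted over 13 pairs). Rab27b over Rab26 changed by 1.53 in the same way, while Rab3d over Rab26 changed by -0.06 (exact p = 0.535; SD 0.13 over the saline and 0.21 over the cerulein arrays). These ratios were chosen after the single values had been seen, and they use the same values.

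Of the effectors that bind Rab3 or Rab27 on granules, 5 of the 14 listed were tested. Sytl4 (granuphilin), a granule-docking protein, rose by 0.55 (SE 0.13, adjusted p = 0.00195). Sytl1 and Myrip, the latter a link between Rab27 and myosin, fell by 0.60 (adjusted p = 0.0091) and 0.56 (adjusted p = 0.00762). Rph3al (Noc2), a Rab3 effector of exocrine and endocrine cells, differed by -0.35 and Exph5 by 0.27, neither called. With equal medians Sytl1, Myrip and Rph3al were lower, and Sytl4 was not called.

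Acinar markers moved with the falls of Rab3d and Rab26. Of 17 acinar markers tested, 13 were lower and 1 higher on the deposited scale, and 16 were lower with equal medians. Their summed signal per array was 502000 to 515000 in NHsd saline and 347000 to 441000 in NHsd cerulein, and 511000 to 522000 and 355000 to 400000 in J. Islet cells also carry granule Rabs: all 11 islet markers tested were higher, 3 of them with equal medians, with a summed signal of 16400 to 21000 in saline and 21600 to 33800 in cerulein. Of the mast cell markers, also of a granule-bearing cell, 4 of 5 stayed under log2 4 on all arrays. The part of acinar and islet cell numbers in the granule Rab results was not tested.

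Promoter sequence was looked up for the granule members in the RefSeq windows of build GRCm38.p6, which run from 250 bases before to 50 after a transcription start. Of the 59 Rab genes, 48 had at least 1 window (60 in all); Rab26 and Rab27b were among the 11 without. The motifs CATATG, the E-box preferred by Bhlha15, CAGCTG, an E-box of many basic helix-loop-helix factors, and TCACGTG, the core of the element bound by TFEB in lysosomal genes, were counted on both strands. CATATG was in 1 of the 60 Rab windows (1.67%) and in 3.91% of all 32851 windows, CAGCTG in 14 (23.3%) against 16.3%, and TCACGTG in 4 (6.67%) against 3.77%. The first 2 motifs read the same on both strands, and TCACGTG can overlap its own reverse complement. Among the 48 genes with a window, Rab27a alone held CATATG, at its downstream start. There a CAGCTG follows within the same stretch, and the motifs begin 26 and 15 bases before the start. Rab3d held none of the 3 in its window. The 250 bases before the Rab3d start and before the downstream Rab27a start are shown. The reason is that Rab27a held the single CATATG of these 48 genes and Rab3d held no motif. The 250 bases before the upstream Rab27a start held no motif and are not shown. Capitals mark the motifs, and a match is a description of letters, not a binding site. Sites outside the windows were not looked for, so a window without a motif does not show that a factor is without effect.
Rab3d (chr9:21918184-21918433, minus strand): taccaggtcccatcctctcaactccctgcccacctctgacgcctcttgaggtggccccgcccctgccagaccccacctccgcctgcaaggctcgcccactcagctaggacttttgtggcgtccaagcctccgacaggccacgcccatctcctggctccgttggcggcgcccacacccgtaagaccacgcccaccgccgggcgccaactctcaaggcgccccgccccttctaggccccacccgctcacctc
Rab27a, downstream start (chr9:73063898-73064147, plus strand): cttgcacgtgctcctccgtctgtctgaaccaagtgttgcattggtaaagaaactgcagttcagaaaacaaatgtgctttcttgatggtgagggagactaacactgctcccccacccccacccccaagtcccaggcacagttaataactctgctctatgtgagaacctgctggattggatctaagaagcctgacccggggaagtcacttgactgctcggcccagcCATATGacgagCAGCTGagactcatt

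The other Rabs of regulated secretion, known from neurons and endocrine cells, gave little signal. Of 6 measured (Rab3a, Rab3b, Rab3c, Rab15, Rab37 and Rab44), 5 did not pass the filter. Rab3a, read by a probe set prone to cross-hybridisation (1459980_x_at), stood within 0.01 of 1 value on at least 6 of the 12 arrays, a floor that background correction can leave, and its difference was 0.01.

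Among the 10 tested Rabs of the endoplasmic reticulum and Golgi, 5 were higher and 3 lower, and with equal medians 3 were higher and 5 lower. The shares of all genes, against which this and each later role count is to be read, were 59.4% higher and 10.0% lower, and 26.6% and 36.1% with equal medians. The group held Rab34, with the largest fitted rise of the family, Rab6b, with the largest fall, and a closely related pair that moved in opposite directions, Rab6a and Rab6b.

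Rab34, which positions lysosomes and acts in macropinocytosis and cilium formation, was under log2 4 on every saline array and above it on every cerulein array. The NHsd arrays read 3.82, 3.74 and 2.91 for saline and 5.75, 5.60 and 5.48 for cerulein. The J arrays read 3.18, 3.72 and 3.11 for saline and 6.39, 6.27 and 6.01 for cerulein. No groups overlapped. The fitted difference was 2.51 (SE 0.17, adjusted p = 1.5e-07). Rab34 passed the filter through the cerulein arrays alone, so this p-value is not independent of the filter. Because the saline values lie in the range that the filter treats as low, the rise is better given as a bound: at least 3.06-fold in NHsd and at least 4.67-fold in J, with the saline level set to log2 4. Its other probe set differed by 2.14.

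Rab6a, the widely expressed Golgi Rab of retrograde and post-Golgi traffic, was higher on every cerulein array than on any saline array. Levels in NHsd were 6.95, 6.93 and 6.87 with saline and 8.28, 8.39 and 8.44 with cerulein. Levels in J were 7.34, 7.14 and 6.95 with saline and 8.13, 8.57 and 8.61 with cerulein. The rise was 1.37 (SE 0.11, adjusted p = 5.02e-07), 2.59-fold, with 1.45 in NHsd and 1.29 in J, and 0.79 with equal medians. Its other 2 probe sets differed by 0.97 and 0.64.

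Rab6b, its paralog known best from neurons, fell. NHsd saline gave 6.36, 6.46 and 6.90, and NHsd cerulein 5.96, 5.69 and 5.78. J saline gave 6.62, 6.68 and 6.24, and J cerulein 4.60, 5.50 and 5.49. Every cerulein array was below every saline array, and J cerulein 1 was the lowest of all. The difference was -1.04 (SE 0.17, adjusted p = 0.000164), with -0.77 in NHsd and -1.32 in J, and -0.89 for the mean of both substrains at its weakest when 1 array was left out. In NHsd the call was lost without NHsd saline 3 (-0.60, adjusted p = 0.0781) or NHsd cerulein 2 (-0.70, 0.0532). A second probe set differed by -0.51.

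On the same array, the ratio of Rab6a to Rab6b went from 0.10, -0.02 and -0.52 to 1.83, 2.21 and 2.18 in NHsd. In J it went from 0.23, -0.03 and 0.22 to 3.04, 2.58 and 2.63. The change was 2.41 with no overlap (exact permutation p = 0.00216, adjusted p = 0.00401). A shift of all values of an array by 1 amount leaves this ratio as it is. The bases before both starts are shown because the 2 genes moved in opposite directions: each holds 1 CAGCTG, in capitals, 113 bases before the Rab6a start and 72 before that of Rab6b, with 62.8% and 80.8% G and C.
Rab6a (chr7:100607336-100607585, plus strand): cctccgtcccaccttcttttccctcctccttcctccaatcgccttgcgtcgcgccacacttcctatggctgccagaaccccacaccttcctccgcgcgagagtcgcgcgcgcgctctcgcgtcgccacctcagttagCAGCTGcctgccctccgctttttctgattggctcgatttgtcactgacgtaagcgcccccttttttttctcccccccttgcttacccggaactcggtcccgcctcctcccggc
Rab6b (chr9:103111824-103112073, plus strand): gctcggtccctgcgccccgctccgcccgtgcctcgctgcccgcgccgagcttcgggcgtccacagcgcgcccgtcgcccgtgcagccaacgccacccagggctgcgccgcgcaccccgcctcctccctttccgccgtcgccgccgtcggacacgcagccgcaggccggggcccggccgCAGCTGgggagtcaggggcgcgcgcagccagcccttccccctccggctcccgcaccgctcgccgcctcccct

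Rab1a and Rab1b, near-identical proteins that act from the endoplasmic reticulum to the Golgi, also parted. For Rab1a (1416082_at), NHsd saline gave 10.37, 9.97 and 10.36, and NHsd cerulein 11.36, 11.01 and 11.58. J saline gave 10.44, 10.71 and 10.24, and J cerulein 11.28, 11.31 and 11.47. The groups did not overlap, and the rise was 0.99 (SE 0.12, adjusted p = 1.69e-05). A second Rab1a probe set, also bright, differed by 0.12 (SE 0.13), so the rise rests on 1 of 2 probe sets. Rab1b differed by -0.27 (SE 0.10, adjusted p = 0.0352), a call that 8 of the 12 fits without 1 array lost; it was -0.51 in NHsd and -0.03 in J. The ratio of Rab1a to Rab1b within arrays changed by 1.26 with no overlap (exact permutation p = 0.00216, adjusted p = 0.00401).

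Rab39b, a Rab of autophagy and neuronal traffic, was near the low threshold throughout. Saline values were 4.65, 3.97 and 4.12 in NHsd and 4.01, 4.004 and 3.92 in J. Cerulein values were 3.74, 3.76 and 3.78 in NHsd and 3.81, 3.24 and 3.59 in J. All cerulein arrays were below all saline arrays and under log2 4. The gene passed the filter through 4 saline arrays alone, so it is counted as lower but the size of its fall is not given. In NHsd the call was lost in 9 of 12 fits without 1 array. Rab18, of lipid droplets and the endoplasmic reticulum, and Rab33b, a Golgi Rab of autophagy, rose by 0.66 and 0.60, close to the median gene. Rab2a and Rab43 were not called (0.10 and -0.08), though with equal medians both were lower (-0.48 and -0.66).

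The group set as exocytic held 6 Rabs, Rab8a, Rab8b, Rab10, Rab12, Rab13 and Rab14. All 6 were called higher after cerulein, where 59.4% of all genes were. Rab13 passed the filter through cerulein arrays alone, so its call is not independent of the filter. With equal medians 1 of the 6, Rab8b, was higher, where 26.6% of all genes were. Rab8b acts in polarised transport and at cell junctions. The NHsd arrays read 5.49, 4.86 and 5.52 for saline and 7.53, 7.32 and 7.85 for cerulein. The J arrays read 5.64, 5.76 and 5.28 for saline and 7.13, 8.11 and 7.84 for cerulein. No groups overlapped, and J cerulein 1 was the lowest of the cerulein arrays. The rise was 2.21 (SE 0.19, adjusted p = 7.32e-07), 4.62-fold, with 2.28 in NHsd and 2.14 in J. Rab8a, its closest relative, rose by 0.34 (adjusted p = 0.0269), a call lost in 3 of 12 fits without 1 array and with equal medians (-0.24).

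Within arrays, the ratio of Rab8b to Rab8a changed by 1.87 without overlap (exact permutation p = 0.00216, adjusted p = 0.00401). Rab14, between Golgi and endosomes and with the highest mean of these 6 probe sets, read 9.35, 9.07 and 9.46 in NHsd saline and 10.30, 9.89 and 10.13 in NHsd cerulein. In J it read 9.59, 9.49 and 9.40 with saline and 9.63, 10.24 and 9.92 with cerulein. It rose by 0.62 without overlap of treatments, and by 0.04 with equal medians, which was not called. Rab12 and Rab10 rose by 0.92 and 0.47; another Rab10 probe set differed by -0.30. Rab13 was under log2 4 on all saline arrays and above it on 3 cerulein arrays, NHsd cerulein 1 and J cerulein 1 and 2 (4.15, 4.71 and 4.35). It passed the filter through cerulein alone, so the size of its rise is not given.

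Of the 6 tested Rabs of early endosomes, 4 were higher, and with equal medians 2 were higher and 1 lower. The 1 lower was Rab22a (-0.53), whose probe set stood at a fixed value, so the shift of the arrays alone gives this call. Rab31 (Rab22b), which carries cargo between the trans-Golgi network and endosomes and acts in phagocytes and epithelia, crossed the low threshold. Levels in NHsd were 3.41, 3.02 and 3.24 with saline and 5.23, 5.01 and 4.999 with cerulein. Levels in J were 3.33, 3.29 and 3.04 with saline and 5.65, 5.66 and 5.31 with cerulein. Every saline array was under log2 4 and every cerulein array above it. The fitted difference was 2.09 (SE 0.12, adjusted p = 3.08e-08), and the bound was at least 2.12-fold in NHsd and 2.91-fold in J. Rab31 passed the filter through the cerulein arrays alone, so this p-value is not independent of the filter.

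Rab5a and Rab5c, the Rabs of endosome fusion, rose together. For Rab5a, levels in NHsd were 7.72, 7.14 and 7.57 with saline and 8.39, 8.22 and 8.73 with cerulein. Levels in J were 8.05, 7.70 and 7.41 with saline and 8.47, 8.58 and 8.55 with cerulein. Treatments did not overlap. The rise was 0.89 (SE 0.14, adjusted p = 0.000131) for Rab5a and 0.86 (SE 0.13, adjusted p = 8.94e-05) for Rab5c, and with equal medians 0.31 (called) and 0.28 (adjusted p = 0.0857). Their ratio within arrays changed by 0.04 (exact permutation p = 0.87), with an SD of 0.52 over the saline arrays, so a difference between them was not detected at this precision. Rab5b did not pass the filter. Rab21 rose by 0.38, Rab20 was not called (0.36), and Rab22a stood at a fixed value on its main probe set (0.05) while another differed by 0.70.

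Of the 48 Rab genes with a promoter window, Rab5a, Rab21, Rab23 and Rab24 held TCACGTG, 4 of the 22 that were higher and 0 of the 5 lower, 10 not called or 11 not tested. CAGCTG was in 2 of those 22, 2 of the 5, 3 of the 10 and 7 of the 11. With equal medians Rab21 and Rab23 were not called (-0.20 and -0.03). The share of TCACGTG among all higher genes was not counted, and a link between motif and call was not tested. Rab5a is shown because its stretch held the motif in 2 places, 235 and 96 bases before the start, the second time on both strands in overlap; capitals mark it.
Rab5a (chr17:53478984-53479233, plus strand): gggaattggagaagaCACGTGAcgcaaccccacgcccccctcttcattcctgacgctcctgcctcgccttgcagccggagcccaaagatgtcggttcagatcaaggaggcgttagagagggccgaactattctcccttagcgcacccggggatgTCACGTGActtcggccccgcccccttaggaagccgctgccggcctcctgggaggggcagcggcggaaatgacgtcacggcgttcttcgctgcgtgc

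Among 6 tested Rabs of late endosomes, lysosomes and related organelles, 4 were higher (Rab7b, Rab32, Rab24 and Rab9), and with equal medians 3 were higher and 2 lower. Rab7b, which returns cargo from late endosomes to the Golgi and is known from monocytes, rose from under log2 4. NHsd saline gave 3.49, 3.16 and 3.51, and NHsd cerulein 4.77, 4.90 and 5.14. J saline gave 3.34, 2.66 and 3.01, and J cerulein 5.20, 5.24 and 4.83. Every saline array was below log2 4 and every cerulein array above it. The fitted difference was 1.82 (SE 0.14, adjusted p = 3.69e-07), and the bound at least 1.91-fold in NHsd and 2.13-fold in J. Rab7b, too, passed the filter through the cerulein arrays alone, so this p-value is not independent of the filter.

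Rab7, the main Rab of late endosomes, was not called. Saline values were 8.79, 8.90 and 9.08 in NHsd and 9.34, 9.07 and 8.74 in J. Cerulein values were 9.09, 8.77 and 9.05 in NHsd and 8.42, 8.92 and 8.88 in J. The treatments overlapped in both substrains. The difference was -0.13 as deposited, with a 95% interval from -0.41 to 0.16, and -0.71 with equal medians, where it was called lower. The ratio of Rab7b to Rab7 within arrays changed by 1.95 without overlap (exact permutation p = 0.00216, adjusted p = 0.00401). Rab7b passed the filter through the cerulein arrays alone, so this ratio gives no independent support. Its size rests on saline values under log2 4.

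Rab32, a Rab of lysosome-related organelles and mitochondria with a role in phagocytes, also rose. The NHsd arrays read 3.90, 3.90 and 3.85 for saline and 5.14, 5.48 and 5.49 for cerulein. The J arrays read 3.85, 3.94 and 4.10 for saline and 5.92, 6.07 and 5.37 for cerulein. Only J saline 3 was above log2 4 among the saline arrays, and no groups overlapped. The difference was 1.66 (SE 0.13, adjusted p = 4.12e-07), and in NHsd the bound was at least 2.59-fold. With 1 saline array above log2 4, Rab32 met the filter only through the cerulein arrays, so this p-value is not independent of the filter. Rab24, tied to autophagy, rose by 0.93 and Rab9, of transport from late endosomes to the Golgi, by 0.70. Rab29 was not called (-0.12), with J cerulein 1 at 6.95 and the other J cerulein arrays at 5.78 and 5.68.

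**Figure D3:**
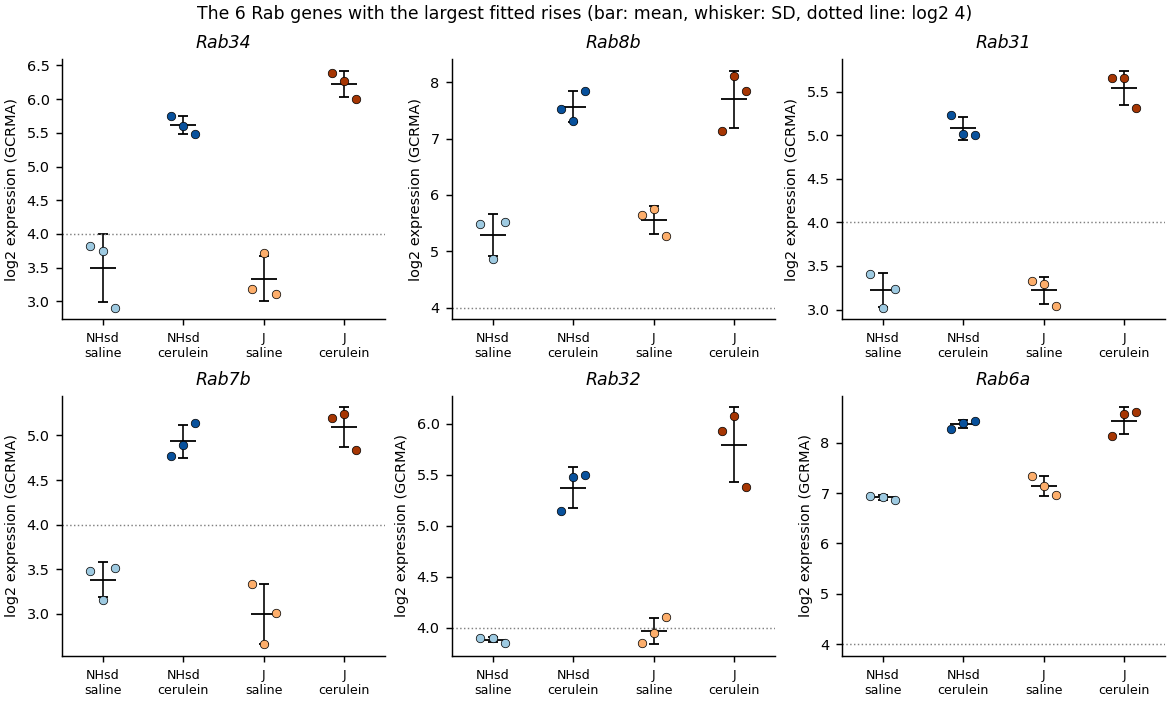
Log2 expression of the 6 Rab genes with the largest fitted rises (Rab34, Rab8b, Rab31, Rab7b, Rab32 and Rab6a) on each array, with group mean, SD and the line at log2 4. In all 6 panels every cerulein array lies above every saline array, and Rab34, Rab31 and Rab7b are under log2 4 on all saline arrays.

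Macrophage and fibroblast markers moved with these rises. All 17 tested macrophage markers were higher, with a summed signal of 779 to 1290 per saline array and 8000 to 13400 per cerulein array, and Itgam was under log2 4 on all arrays. Of 13 tested fibroblast and stellate markers, 12 were higher (2420 to 3950 against 9320 to 23500). Of 7 duct markers, 5 were higher and 1 lower (944 to 1020 against 1480 to 2050), and all 13 proliferation markers were higher (383 to 486 against 2330 to 4130). Of 8 T and NK cell markers, 6 (Cd3d, Cd3e, Cd3g, Cd8a, Nkg7 and Gzmb) stayed under log2 4 throughout. The 1 that was tested was lower (-1.20), also with equal medians. Of the neutrophil markers, 2 were tested and 0 called, and Mpo and Elane stayed under log2 4. The part of these cell types in the rises of Rab34, Rab31, Rab7b, Rab32 and Rab8b was not tested.

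Of 6 tested Rabs of recycling endosomes, 3 were higher (Rab11b, Rab35 and Rab25) and 1 lower (Rab4a), and with equal medians 3 were lower and the higher calls were lost. Rab4a, of fast recycling, read 6.38, 6.05 and 6.21 in NHsd saline and 5.43, 5.91 and 5.73 in NHsd cerulein. In J it read 6.24, 6.06 and 5.23 with saline and 5.93, 5.05 and 5.29 with cerulein. The J groups overlapped through J saline 3. The difference was -0.47 (SE 0.19, adjusted p = 0.0465), lost in 9 of 12 fits without 1 array, and the other Rab4a probe set differed by 0.30, so the fall rests on 1 probe set. Rab11a, of apical recycling, was not called: the NHsd arrays read 8.75, 8.34 and 8.57 for saline and 8.75, 8.44 and 8.47 for cerulein. The J arrays read 8.66, 8.39 and 8.53 for saline and 9.14, 8.72 and 8.67 for cerulein. Its difference was 0.16, with 0.00 in NHsd and 0.31 in J, and another of its probe sets differed by 0.73. Rab25, the epithelial relative of Rab11, rose by 0.38 and Rab11b by 0.59.

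Among the remaining members, Rab23, a regulator of cilia, was under log2 4 on all NHsd saline arrays (3.74, 3.97 and 3.27) and above it on all NHsd cerulein arrays (4.11, 4.15 and 4.18), a bound of at least 1.11-fold. Its mean difference was 0.55 (SE 0.15, adjusted p = 0.00616). Among the saline arrays only J saline 2 (4.04) was above log2 4. Rab23 thus met the filter only through the cerulein arrays, and this p-value is not independent of the filter. Rab40b, which joins a ubiquitin ligase, read 3.54, 4.29 and 3.66 in NHsd saline and 3.33, 3.10 and 3.32 in NHsd cerulein. In J it read 4.12, 3.59 and 3.89 with saline and 4.06, 3.20 and 3.41 with cerulein, and J cerulein 1 lay among the saline values. It was above log2 4 on 3 of the 12 arrays, so the size of its fall is not given, and the call was lost in 8 of 12 fits without 1 array. Rab40c stood at a fixed value (0.12). Rab28 was not called (0.35): levels in NHsd were 6.71, 6.68 and 6.51 with saline and 6.94, 6.63 and 6.89 with cerulein. Levels in J were 6.87, 6.68 and 6.68 with saline and 8.15, 6.74 and 6.92 with cerulein. J cerulein 1 alone stood out.

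The 16 members that did not pass the filter were Rab2b, Rab3b, Rab3c, Rab5b, Rab9b, Rab15, Rab17, Rab19, Rab30, Rab33a, Rab36, Rab37, Rab38, Rab39, Rab42 and Rab44. Of these, 14 were under log2 4 on all 12 arrays and give no difference. Rab36 and Rab44 were above it on 2 arrays each, all from saline. Of the 43 that passed, 34 were above log2 4 on every array, and a member that passed through 1 treatment alone, such as Rab34, Rab31 or Rab7b, had to differ between treatments to be tested.

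**Figure D4:**
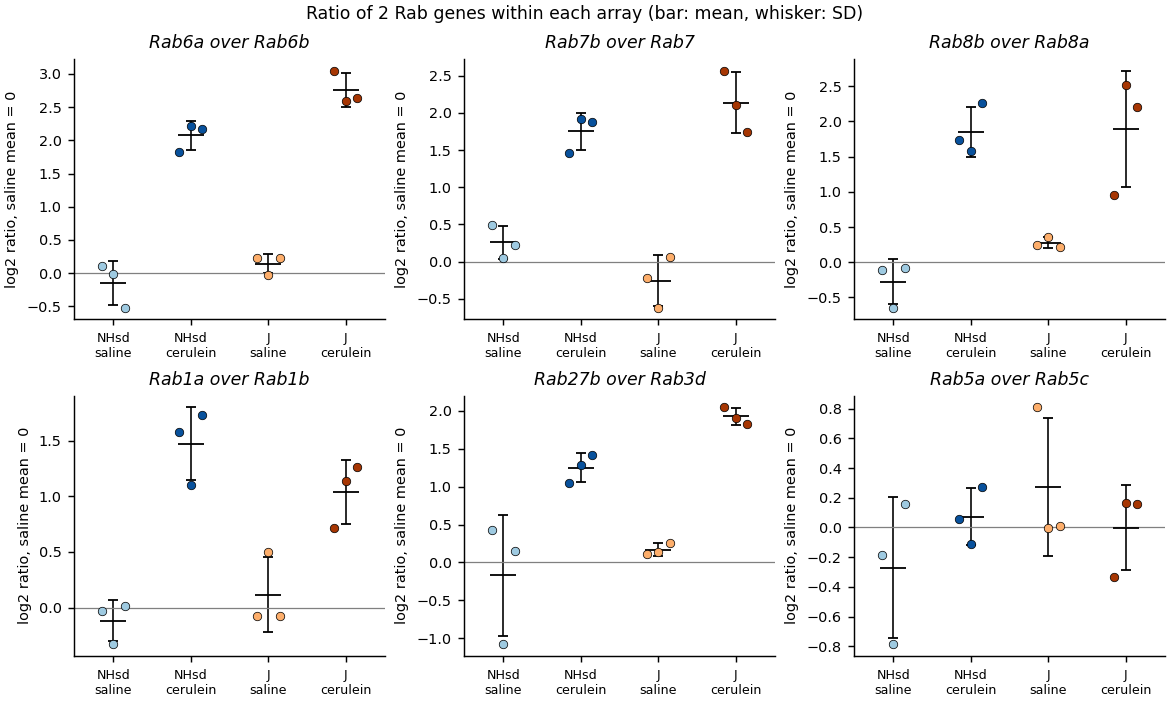
Log2 ratio of 2 Rab probe sets within each array, set to 0 at the mean of the 6 saline arrays. Shown are 4 paralog pairs whose ratio changed without overlap, Rab27b over Rab3d, and Rab5a over Rab5c. Bars are means and whiskers SDs of 3 arrays. Rab7b, in 1 of the 4 pairs, was under log2 4 on all saline arrays and passed the filter through cerulein alone. The cerulein arrays lie above all saline arrays in the first 5 panels, and the treatments overlap for Rab5a over Rab5c.

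All 10 pairs of tested members that share a number were compared in this way, besides the 3 granule ratios, with p-values adjusted over the 13. Those that changed without overlap were Rab6a over Rab6b (2.41), Rab7b over Rab7 (1.95), Rab8b over Rab8a (1.87), Rab1a over Rab1b (1.26) and Rab3a over Rab3d (0.77). In the last, Rab3a stood at a fixed value. Rab7b was under log2 4 on all saline arrays, so the size of its ratio change rests on low values. Rab4a over Rab4b changed by -0.52 (exact permutation test, adjusted p = 0.0344), Rab40c over Rab40b by 0.57 (adjusted p = 0.0281) and Rab27b over Rab27a by 0.54 (adjusted p = 0.0422), all with overlap. Rab40c stood at a fixed value and Rab40b was above log2 4 on 3 of the 12 arrays, so their ratio does not show that the pair parted. Rab11b over Rab11a (0.43, adjusted p = 0.0793) and Rab5a over Rab5c did not pass.

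The probe sets of a gene did not always move alike. Of the 17 Rab genes with more than 1 probe set above the filter, 12 had all of them on 1 side of 0. The exceptions were Rab2a, Rab4a, Rab7, Rab10 and Rab27b, in Rab27b through a probe set at a fixed value. In Rab2a 3 bright probe sets differed by 0.10 to 0.26 and a dim one by -0.85. Rab6a, Rab6b, Rab24, Rab34 and Rab14 had a single direction on all their probe sets.

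**Figure D5:**
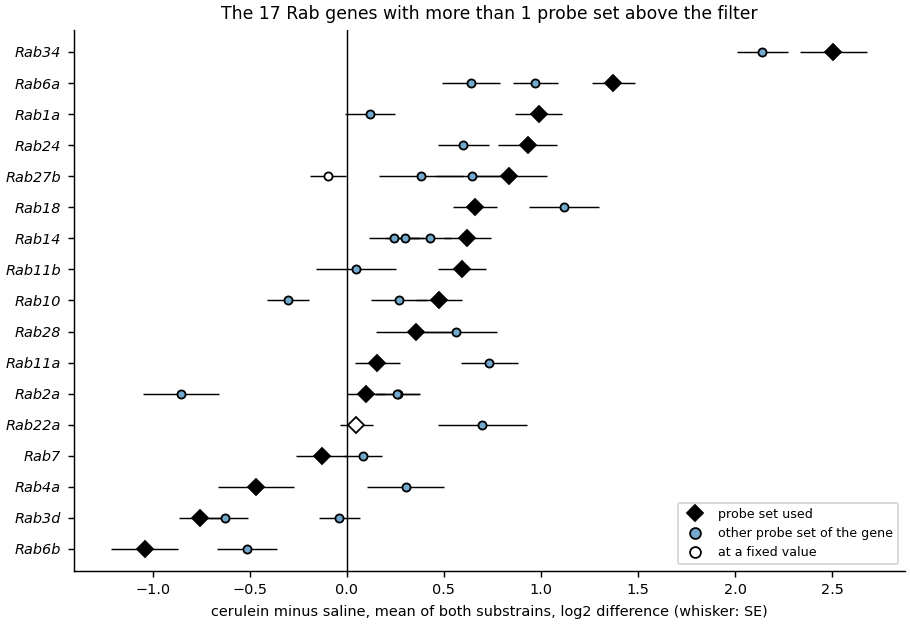
Log2 difference of cerulein minus saline, mean of both substrains, for each probe set of the 17 Rab genes with more than 1 probe set above the filter; diamonds are the probe sets used, circles the others, open symbols those at a fixed value, whiskers 1 SE. The 3 probe sets of Rab6a lie between 0.64 and 1.37, while those of Rab4a and Rab10 lie on both sides of 0.

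The same comparison was made within each substrain. In NHsd, 18 Rab genes were higher and 5 lower, where 48.7% and 6.58% of all genes were; the lower count was 3 without NHsd saline 3 and 2 without NHsd cerulein 2. In J, 21 were higher and 3 lower, where 47.8% and 7.59% of all genes were, and 5 were lower without J cerulein 1. With equal medians the counts were 7 higher and 16 lower in NHsd (20.3% and 28.8% of all genes). In J they were 7 higher and 14 lower (20.9% and 29.2%). Both lower counts include Rab3a, Rab22a and Rab40c, which stood at a fixed value. In both substrains, 17 Rab genes were higher and 3, Rab3d, Rab26 and Rab6b, lower, where 39.3% and 4.87% of all genes were. The 3 largest fitted rises were those of Rab8b, Rab34 and Rab31 in each substrain; their order is not given, since Rab34 and Rab31 were under log2 4 on all saline arrays. The 3 largest falls were Rab6b, Rab3d and Rab26 in each.

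The sign was the same in both substrains for 37 of the 43 genes, and across these genes the 2 sets of differences had a Pearson r of 0.934, over genes that are not independent replicates and arrays that share the contrast of the treatments. No Rab gene was called in the difference of the cerulein effect between substrains (limma; 2 at an unadjusted p under 0.05), in J against NHsd in saline (1) or in J against NHsd after cerulein (5), where 0.0118%, 0.0589% and 0.224% of all genes were called. The 2 were Rab34, whose effect was 0.77 larger in J (adjusted p = 0.701; 95% interval 0.02 to 1.51 before adjustment), and Rab1b (0.47, 0.701). The 1 in saline was Rab10 (0.42, adjusted p = 0.687), and the 5 after cerulein were Rab1b (0.47), Rab31 (0.46), Rab32 (0.42), Rab34 (0.61) and Rab6b (-0.61), named after their values were seen. For the granule members the difference of effects, J minus NHsd, was -0.17 for Rab3d, -0.09 for Rab26, -0.21 for Rab27a and 0.17 for Rab27b, with 95% intervals from -0.65 to 0.30 for Rab3d and from -0.69 to 1.02 for Rab27b.

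The genes that load, switch and read the Rabs were taken as a list of 151, of which 142 were on the array and 102 tested. Of these, 52 were higher and 13 lower, where 59.4% and 10.0% of all genes were, with a median difference of 0.33 against 0.49 for all genes. With equal medians 14 were higher and 45 lower, where 26.6% and 36.1% of all genes were. Of 7 genes of prenylation and membrane cycling, 5 were higher, among them Gdi2, the main GDI (0.86, SE 0.10), and Rabif (0.96, SE 0.15), and Rabac1 (PRA1), which helps release Rabs from GDI, was lower (-0.80, SE 0.14). Of 34 exchange factors 16 were higher and 5 lower, of 24 GTPase-activating proteins 15 and 1, and of 32 effectors of other Rabs 15 and 4. With equal medians these counts were 3 higher and 18 lower, 4 and 6, and 5 and 16. The shares of all genes are those just given.

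The 4 largest fitted rises of the list were those of Dennd4c, an exchange factor of Rab10 (1.85, SE 0.16), Rabgap1l, a GTPase-activating protein (1.77, SE 0.26), Rin2, an exchange factor of Rab5, and Myo5a, a myosin that carries Rab-bound organelles, each also higher with equal medians. Rin2 and Myo5a were under log2 4 on all saline arrays, so their rises are given as bounds. Rin2 rose at least 1.82-fold in NHsd and 2.37-fold in J, and Myo5a at least 2.11-fold and 2.38-fold. The 4 largest fitted falls were those of Sbf2 (-1.48, SE 0.14) and Dennd6b (-1.04, SE 0.18), of the DENN family of exchange factors, Wdr91, a Rab7 effector of endosome maturation, and Rabac1. Wdr91 was under log2 4 on 4 of 6 cerulein arrays, so the size of its fall is not given. Sbf2 had group means of 8.13 and 6.67 in NHsd saline and cerulein and 8.21 and 6.70 in J.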

How the data were processed

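The 12 Affymetrix mouse arrays were analysed from the series' value table, which holds log2 values the authors deposited; per the submitters' processing notes GCRMA and Partek were used, and further steps are not given in the sources used here. The scaling was left as deposited. Of 45101 probe sets, 34958 had 1 gene symbol in the platform annotation, 932 several and 9211 no listed gene. The probe set with the highest mean stood for a gene, and genes above log2 4 on at least 3 of 12 arrays were kept (8493 of 18194).

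Groups were fitted with limma 3.58.1 in R 4.3.3 (1 mean a group, trend in the variance, 8 residual degrees of freedom), and p-values were adjusted by Benjamini-Hochberg over all kept genes; the fit was tested on simulated data. P-values measure the spread between these samples only. The members, lists and tests were chosen with earlier results of these data known. Named were the granule Rabs, the 6 largest called rises and falls (3 in each substrain), members crossing log2 4 between groups, the member with the highest mean in each role, and the pathway genes with the 4 largest called changes each way together with the effectors of Rab3 and Rab27. Ratios within arrays and the fit without probe sets at a fixed value (within 0.01 of their median on at least 6 arrays) were added after seeing the data. Other alternatives were quantile and equal-median scaling, other filters, other moderation, other choices of the probe set, the replicate number as a block, only the groups compared, and leaving out each array. The number of arrays limits the precision; no depth applies.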

Additional observations from a re-analysis of the deposited data

How the results depend on the processing

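For the mean of both substrains, quantile normalization and equal medians each gave 9 Rab genes higher and 17 lower, against 25 and 7. In NHsd, quantile normalization gave 8 and 14 and equal medians 7 and 16, against 18 and 5, and in J they gave 8 and 14, and 7 and 14, against 21 and 3. Under both scalings each lower count includes Rab3a, Rab22a and Rab40c, whose probe sets stood at a fixed value. Rab27a turned from 0.30 to -0.28 under both scalings. A filter at log2 6, which tests 29 Rab genes, left 4 lower for the mean of both and 3 lower in NHsd. Leaving out 1 array at a time gave 22 to 26 higher and 4 to 7 lower for the mean of both, 16 to 20 and 2 to 6 in NHsd, and 15 to 20 and 3 to 5 in J. With the replicate number as a block the counts were 25 and 6, 20 and 5, and 20 and 3; same-numbered arrays deviated with correlations from -0.162 to 0.342, so they share only a number. The fit on only the groups compared cannot be made for the mean of both substrains or for the difference of effects. The cause of these changes was not tested. The counts of 0 between substrains stayed 0 under every alternative that could be run. Only 3 arrays a group limit what could be called.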

Other observations

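Rab36, Rab37 and Rab44, below the filter, had their highest values on saline arrays, and they were named after their values were seen. The highest value was also on a saline array for Rab3b, Rab9b, Rab17, Rab19, Rab33a, Rab38 and Rab42. Rab2b, Rab3c, Rab5b and Rab30 had their highest value on a cerulein array, and Rab5b had its lowest (3.23) on one as well. Rab15 and Rab39 stood at 1 value on all 12 arrays. For Rab2b the treatments did not overlap, with 3.436 to 3.482 on the saline and 3.485 to 3.869 on the cerulein arrays. Rab37, a Rab of secretory granules in several cell types, read 3.01, 3.55 and 3.13 on the NHsd saline arrays and 3.77, 3.10 and 3.02 on the J saline arrays. After cerulein it read 2.85, 2.97 and 2.81 in NHsd and 2.75, 2.87 and 2.94 in J. Rab36 reached 4.13 on NHsd saline 1 and 4.23 on J saline 2, and its cerulein arrays lay between 3.35 and 3.42. Rab44 reached 4.39 on NHsd saline 3, with cerulein arrays between 3.11 and 3.59. None of these members passed the filter, and they were not tested. Rab37 and Rab2b were under log2 4 on every array, so no difference is given for them. J cerulein 1 was the highest of its group for Rab28 (8.15), Rab29 (6.95) and Rab8a (6.49) and the lowest for Rab6b (4.60), Rab8b (7.13) and Rab11b (6.05).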
